A study of Mus musculus with 16 samples.

Results

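The 10 genes described here were chosen by symbol: Bcl2, Bcl2l1, Mcl1, Bax, Bak1, Bok, Bcl2l11, Bad and Bid of the Bcl2 family, and Xiap. All 10 were among the 16383 genes of the deposited table, and all 10 were among the 12907 that passed the filter on low values (at least 1 FPKM in at least 4 libraries). FPKM counts sequenced fragments after scaling by gene length and library size. Comparisons of level between genes therefore rest on the lengths used, which the sources used here do not give. The cells were undifferentiated spermatogonia, the mitotic germ cells that include the stem cells of spermatogenesis, sorted by flow cytometry from adult mice 10 days after busulfan. Every mouse had received busulfan at 10 mg/kg, a DNA alkylator that depletes the germ line. Beginning on day 3, PD0325901 (2.5 mg/kg), which blocks MEK and with it ERK activation, or a 10% DMSO vehicle was injected once a day, 7 times. The 16 polyA RNA libraries fell into 4 groups of 4: Spry4 germline knockout with PD0325901 (KO_PD), Spry4 germline knockout with vehicle (KO_vehicle), wild type with PD0325901 (WT_PD) and wild type with vehicle (WT_vehicle). Spry4 encodes a feedback inhibitor of growth factor signalling to ERK. The column names carry Spry4ff for the wild-type libraries and GCRT_Spry4KO for the knockout. Whatever GCRT refers to is confined to the knockout, and its effect and that of Spry4 loss cannot be told apart. Neither the sort's surface markers nor the deleted part of Spry4 is given in the sources used here. No label states that the 4 libraries of a group came from different animals. Each column name carries a different SP number, whose meaning is not given. The p-values accordingly reflect variation among libraries, which may be technical.

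Cells that die by the intrinsic pathway permeabilise the outer mitochondrial membrane, and the Bcl2 family decides this by binding among its own members. BCL2, BCL-XL (from Bcl2l1) and MCL1 hold the membrane closed, BAX, BAK and BOK open it, and the BH3-only proteins BIM (from Bcl2l11), BAD and BID push the balance towards opening. Cytochrome c then leaves the mitochondria and activates caspases, which XIAP binds and blocks. ERK activity is known to promote the breakdown of BIM, to keep BAD inactive and to stabilise MCL1, in each case through phosphorylation of the protein. Male mice without Bax accumulate premeiotic germ cells, and mice with low Bcl2l1 lose germ cells. Only transcripts were measured here.

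The sequences before the start sites of 3 members are shown because 2 of them, Bcl2 and Bad, went with the peritubular myoid genes described further on, and Bax did not. Each is the 250 bases upstream of the gene's start on its own strand, from RefSeq on build GRCm38.p6, and capitals mark GGGCGG or its reverse complement CCGCCC, the GC box that SP1-family factors bind.
Bcl2, chr1:106714291-106714540, minus strand: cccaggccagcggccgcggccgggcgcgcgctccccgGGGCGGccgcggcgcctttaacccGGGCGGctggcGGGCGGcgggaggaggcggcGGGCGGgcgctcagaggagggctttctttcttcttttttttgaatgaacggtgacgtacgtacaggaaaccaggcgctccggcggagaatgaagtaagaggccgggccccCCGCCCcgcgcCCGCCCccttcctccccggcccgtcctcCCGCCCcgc
Bad, chr19:6941611-6941860, plus strand: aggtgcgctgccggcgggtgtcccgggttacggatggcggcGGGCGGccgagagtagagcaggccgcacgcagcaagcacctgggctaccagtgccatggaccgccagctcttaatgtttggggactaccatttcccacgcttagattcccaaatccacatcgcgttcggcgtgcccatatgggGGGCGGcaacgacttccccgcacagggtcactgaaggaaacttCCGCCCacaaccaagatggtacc
Bax, chr7:45466899-45467148, minus strand: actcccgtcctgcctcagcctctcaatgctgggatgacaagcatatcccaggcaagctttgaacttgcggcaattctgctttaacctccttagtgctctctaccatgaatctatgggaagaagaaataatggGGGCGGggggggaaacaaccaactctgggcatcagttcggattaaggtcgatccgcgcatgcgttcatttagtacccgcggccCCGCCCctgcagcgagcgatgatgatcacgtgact
The Bcl2 window held 7 GC boxes and 74.8% G or C, the Bad window shown held 3 and 62.8%, and the Bax window held 2 and 54.0%. The other window of Bad held 0 GC boxes and 64.8% G or C, and that of Bak1, the member that followed the same genes most closely, held 0 and 58.4%. No relation between GC boxes and the peritubular list is read from these windows. RefSeq gives 16 such windows for the 10 members, from 39.2% to 74.8% G or C, and 10 of the 16 held at least 1 GC box, against 32.7% of the 32851 windows of all genes, whose median was 52.4% G or C. The forkhead motif TGTTTAC, searched on both strands like every motif here, was in 1 of the 16 windows, the one that ends at the outer start of Bcl2l11, against 3.17% of all windows. TGACGTCA, the cyclic AMP response element, was in 0 of 16 windows against 1.55% of all, the CArG box in 0 against 1.47%, and a pair of p53 half-sites in 0 against 0.0639%. No motif searched contains another, matches of one motif could overlap, and a match describes these letters only.

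The sorted cells carried their defining markers in every library. Zbtb16, a transcription factor of undifferentiated spermatogonia, was at 85.6 to 125 FPKM, and the 10 genes of that list summed to 559 to 816 FPKM. Genes listed for later germ cells had transcripts in every library too. The 4 differentiating spermatogonia genes summed to 34.0 to 69.95 FPKM and the 5 meiotic genes to 46.2 to 207.6 FPKM. Transcripts of peritubular myoid cells, the contractile cells around the tubules, were present in every library as well: all 7 genes of that list were in the table, their sum ran from 1152 to 11890 FPKM, and Acta2, smooth muscle actin, ran from 367 to 5095 FPKM. The library KO_vehicle 3 stood apart for spermatid genes, with a list sum of 2746 FPKM against 8.99 to 129 FPKM in the other 15. It was also the highest library for the differentiating, meiotic, Sertoli (16.8 FPKM), endothelial (17.0 FPKM) and erythrocyte (8.10 FPKM) list sums. The 2 of 6 Leydig cell genes in the table, Star and Lhcgr, summed to 2.72 FPKM in WT_PD 2 and 24.7 FPKM in WT_PD 3. These libraries were also lowest and highest for the peritubular list. Lhcgr carried that range, at 1.77 to 24.1 FPKM with its highest value in WT_PD 3. Star stayed at 0.573 to 0.956 FPKM, with its highest value in WT_PD 1. Sertoli, endothelial and macrophage list sums stayed at or below 17.0 FPKM. Of the 6 macrophage and leukocyte genes, 3 stayed under 1 FPKM in every library, among them Ptprc, under 0.1 FPKM throughout. Cd68 ran from 2.04 to 5.31 FPKM, Cd14 from 0.853 to 8.58 FPKM, and Lyz2 reached 2.35 FPKM. The columns of WT_PD 4 and WT_vehicle 4 hold more decimals than the other 14. Fragments in the listed genes, recovered from the FPKM values with the smallest divisor that gave whole numbers, came to 22067746 to 37599456 per library. Spry4 was at 12.96, 8.23, 10.97 and 19.3 FPKM in KO_PD and 11.97, 10.1, 7.28 and 14.7 FPKM in KO_vehicle, against 15.9, 19.6, 27.4 and 22.99 FPKM in WT_PD and 22.6, 23.8, 21.9 and 19.9 FPKM in WT_vehicle. Every KO_vehicle library lay below every WT_vehicle library, while KO_PD 4 lay above WT_PD 1. The log2 difference was −1.01 between KO_vehicle and WT_vehicle (two-sided exact permutation p = 0.0286, the smallest that 4 against 4 allows) and −0.75 between KO_PD and WT_PD (exact p = 0.0571).

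Among the survival genes, Mcl1 was by far the most abundant and Bcl2 the least. Mcl1, a short-lived protein's gene (chromosome 3, 95658788 to 95663176, plus strand, GENCODE M21 on GRCm38), was at 42.7, 43.6, 42.5 and 50.2 FPKM in KO_PD, 35.5, 45.1, 37.5 and 56.8 FPKM in KO_vehicle, 40.5, 39.97, 73.9 and 62.95 FPKM in WT_PD and 48.9, 60.4, 55.9 and 47.02 FPKM in WT_vehicle. WT_PD 3 and WT_PD 4 were highest and KO_vehicle 1 was lowest, and the groups overlapped. Bcl2l1, the gene of BCL-XL (chromosome 2, 152780668 to 152831728, minus strand), was at 18.4, 19.9, 19.1 and 24.6 FPKM in KO_PD, 19.7, 20.6, 19.8 and 21.9 FPKM in KO_vehicle, 19.6, 18.4, 21.9 and 20.4 FPKM in WT_PD and 17.1, 19.3, 22.3 and 19.9 FPKM in WT_vehicle. The lowest and highest of its 16 values were 17.1 and 24.6 FPKM, the narrowest spread among the survival genes, with the groups overlapping throughout. Bcl2, the founding gene of the family (chromosome 1, 106538178 to 106714274, minus strand), was at 2.08, 1.53, 1.76 and 2.99 FPKM in KO_PD, 2.26, 1.74, 0.761 and 2.83 FPKM in KO_vehicle, 1.26, 1.32, 5.08 and 3.44 FPKM in WT_PD and 1.82, 2.89, 2.598 and 1.86 FPKM in WT_vehicle. It varied 6.68-fold over the 16 libraries, with its lowest value in KO_vehicle 3 and its highest in WT_PD 3. Mcl1 made up 61.8% to 73.3% of the summed FPKM of the 3 survival genes in each library.

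Bax led the effector genes in every library. Bax (chromosome 7, 45461697 to 45466898, minus strand), whose protein moves from the cytosol to mitochondria to form the pore, was at 20.1, 19.8, 25.95 and 24.6 FPKM in KO_PD, 19.3, 15.6, 23.01 and 22.5 FPKM in KO_vehicle, 19.5, 19.7, 19.6 and 21.6 FPKM in WT_PD and 20.8, 18.01, 19.7 and 21.5 FPKM in WT_vehicle. KO_PD 3 and KO_PD 4 were highest and KO_vehicle 2 was lowest, and all groups overlapped. Bak1 (chromosome 17, 27019810 to 27029009, minus strand), whose protein sits in the mitochondrial membrane, was at 3.97, 2.29, 4.3 and 6.79 FPKM in KO_PD, 5.42, 2.87, 1.75 and 6.61 FPKM in KO_vehicle, 1.93, 2.25, 10.3 and 5.05 FPKM in WT_PD and 2.48, 4.62, 5.47 and 3.32 FPKM in WT_vehicle. Its 5.89-fold range was spread across groups: WT_PD 3 was highest, and KO_vehicle 3 and WT_PD 1 were lowest. Bok (chromosome 1, 93685660 to 93695764, plus strand), an effector that can act without BAX and BAK, was at 5.11, 2.82, 6.18 and 7.66 FPKM in KO_PD, 6.16, 4.88, 3.41 and 8.08 FPKM in KO_vehicle, 3.81, 4.04, 9.401 and 6.71 FPKM in WT_PD and 4.81, 5.19, 5.04 and 4.48 FPKM in WT_vehicle. It was highest in WT_PD 3 and lowest in KO_PD 2, and WT_vehicle was its tightest group. Bax made up 49.8% to 81.7% of the summed FPKM of the 3 effectors.

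The BH3-only genes among the members lay lower than Mcl1, Bcl2l1 and Bax. Bid (chromosome 6, 120891930 to 120916853, minus strand), whose protein links death receptors to mitochondria, was at 11.4, 14.02, 13.02 and 10.6 FPKM in KO_PD, 11.1, 12.6, 12.1 and 11.2 FPKM in KO_vehicle, 13.6, 12.6, 9.92 and 10.6 FPKM in WT_PD and 11.4, 11.99, 11.5 and 11.7 FPKM in WT_vehicle. KO_PD 2 and WT_PD 1 were highest and WT_PD 3 was lowest, so the 2 extremes of WT_PD spanned nearly the whole range. Bcl2l11 (chromosome 2, 128126038 to 128162547, plus strand), the gene of BIM, was at 3.22, 3.42, 4.16 and 3.53 FPKM in KO_PD, 2.99, 3.92, 4.21 and 3.53 FPKM in KO_vehicle, 3.63, 3.34, 3.88 and 5.29 FPKM in WT_PD and 3.68, 4.45, 4.09 and 3.87 FPKM in WT_vehicle. Only WT_PD 4 stood above 5 FPKM, and the groups overlapped. Bad (chromosome 19, 6941861 to 6951899, plus strand) was at 3.59, 3.08, 3.796 and 5.35 FPKM in KO_PD, 3.49, 3.67, 3.004 and 4.23 FPKM in KO_vehicle, 2.75, 2.77, 5.48 and 4.24 FPKM in WT_PD and 3.87, 4.02, 4.74 and 3.54 FPKM in WT_vehicle. KO_PD 4 and WT_PD 3 were highest, and WT_PD 1 and WT_PD 2 were lowest.

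Xiap (chromosome X, 42059679 to 42109656, plus strand) was at 10.6, 8.89, 7.09 and 6.97 FPKM in KO_PD, 11.1, 9.38, 8.36 and 8.201 FPKM in KO_vehicle, 10.03, 9.68, 12.2 and 10.1 FPKM in WT_PD and 9.71, 10.6, 9.22 and 9.91 FPKM in WT_vehicle. The lowest values were in KO_PD 3 and KO_PD 4, followed by KO_vehicle 4 and KO_vehicle 3, and the highest was in WT_PD 3. Its mean was 8.38 ± 1.70 FPKM in KO_PD, 9.25 ± 1.32 in KO_vehicle, 10.5 ± 1.13 in WT_PD and 9.86 ± 0.573 in WT_vehicle (SD, n = 4 each).

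Ordered by the median FPKM over 16 libraries, the members ran Mcl1 (46.1), Bax (19.96), Bcl2l1 (19.8), Bid (11.6), Xiap (9.69), Bok (5.07), Bak1 (4.13), Bcl2l11 (3.77), Bad (3.73) and Bcl2 (1.97). Some neighbours did not differ beyond their spread. Bax exceeded Bcl2l1 in 8 of 16 libraries, Bak1 exceeded Bcl2l11 in 8, and Bcl2l11 exceeded Bad in 9. Mcl1 exceeded Bax, Bcl2l1 exceeded Bid, and Bad exceeded Bcl2 in all 16. This order depends on the gene lengths behind FPKM. By median recovered fragments, which are not scaled by length, Bcl2 (521) lay above Bad (278.5), Bak1 (260.5) and Bok (255). The summed level of the survival genes was 1.74 to 2.97 times that of the effectors, with means of 2.12 ± 0.366 in KO_PD, 2.25 ± 0.445 in KO_vehicle, 2.47 ± 0.14 in WT_PD and 2.60 ± 0.283 in WT_vehicle (SD, n = 4 each, on the linear FPKM scale). The groups overlapped, at 1.74 to 2.61 in KO_PD, 1.86 to 2.885 in KO_vehicle, 2.30 to 2.60 in WT_PD and 2.34 to 2.97 in WT_vehicle. A difference of this ratio between groups was not tested.

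**Figure D1:**
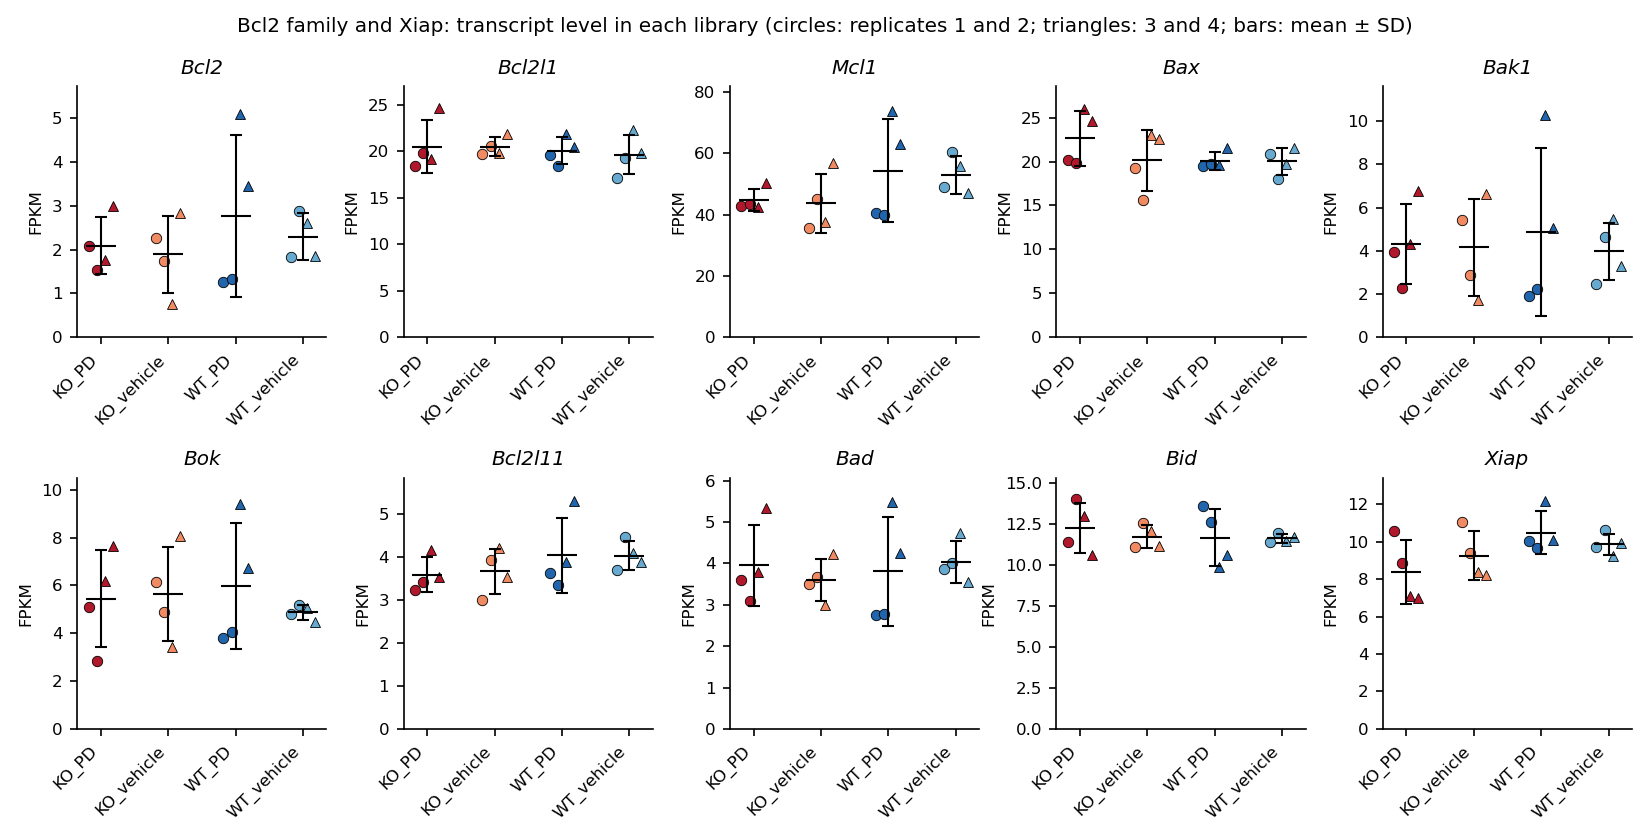
FPKM of each member (y axis, from 0) in the 4 libraries of each group (x axis). Circles are replicates 1 and 2, triangles are replicates 3 and 4, the wide bar is the mean and the error bar is 1 SD. The groups overlap for every member, and the spread within WT_PD is wide for Bcl2, Mcl1, Bak1, Bok and Bad.

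Knockout and wild type were compared under vehicle, under the inhibitor and averaged over both. With limma on log2(FPKM + 0.5) and Benjamini-Hochberg adjustment over the 12907 genes, 0 of 10 members passed an adjusted p of 0.05 in any of the 3 comparisons, against 0.0% of all genes in each. A count model on the recovered fragments (limma's voom) also called 0 genes in each. Spry4, the gene targeted in the knockout, was thus not called either. In the first fit its log2 difference was −1.01 (SE 0.24) under vehicle, −0.75 (SE 0.24) under the inhibitor and −0.88 (SE 0.17) averaged over both. By unadjusted p it ranked 1, 45 and 1 among the 12907 genes, in that order. The absence of calls therefore does not show that the members were unchanged. Before adjustment, 0 of 10 members had p under 0.05 in KO_vehicle against WT_vehicle, where 251 genes (1.94%) did. In KO_PD against WT_PD it was 1 of 10, against 605 genes (4.69%). In the average over treatments it was 1 of 10, against 561 genes (4.35%). That member was Xiap in both.

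Xiap had the lowest unadjusted p among the members. Its log2 difference was −0.32 (SE 0.13) in KO_PD against WT_PD, with an unadjusted limma p of 0.0241 and an adjusted p of 0.988. Averaged over treatments, the difference of knockout from wild type was −0.21, with a 95% interval of −0.40 to −0.02, an unadjusted limma p of 0.0363 and an adjusted p of 0.998. Mcl1 was next, at −0.26 with an interval of −0.55 to 0.03, an unadjusted limma p of 0.0737 and an adjusted p of 0.998. Bcl2 was at −0.24 with an interval of −0.80 to 0.32, and Bcl2l11 at −0.13 with an interval of −0.33 to 0.06. For the other 6 the averaged difference lay between −0.04 (Bad) and 0.08 (Bax). The intervals of Bcl2l1 (−0.10 to 0.19), Bid (−0.11 to 0.19) and Bax (−0.10 to 0.26) bound their differences tightly, while that of Bak1 ran from −0.71 to 0.71. The median averaged difference was −0.02 over the 10 members and −0.01 over all genes tested.

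In KO_vehicle against WT_vehicle, member differences ran from −0.29 (Mcl1) to 0.13 (Bok), with a median of −0.06 against −0.01 over all genes. In KO_PD against WT_PD they ran from −0.32 (Xiap) to 0.16 (Bax), with a median of −0.05 against −0.01. No member's 4 knockout libraries lay wholly above or wholly below the 4 wild-type ones in either comparison. Over all genes, 0.806% lay wholly above and 0.659% wholly below under vehicle, and 0.868% and 1.41% under the inhibitor. These comparisons share no libraries with each other, but each shares its groups with the average.

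The inhibitor was compared with vehicle in each genotype, and no member stood out. The same limma fit called 0 of 10 members and 0.0% of genes in WT_PD against WT_vehicle, in KO_PD against KO_vehicle, in the interaction of genotype and inhibitor and in the average over genotypes. The unadjusted count under 0.05 was also 0 of 10 in each, against 0.891%, 2.96%, 1.71% and 1.84% of all genes in that order. Averaged over genotypes, the members ran from −0.03 (Xiap) to 0.12 (Bcl2, interval −0.44 to 0.68). For the members whose proteins ERK is known to regulate, the averaged differences were −0.02 for Bcl2l11 (interval −0.21 to 0.18), −0.01 for Bad (interval −0.30 to 0.29) and 0.02 for Mcl1 (interval −0.27 to 0.31). In wild type the members ran from −0.12 (Bad) to 0.19 (Bok), and in the knockout from −0.15 (Xiap) to 0.17 (Bax). The interaction ran from −0.25 (Bok) to 0.22 (Bad). The median of the averaged difference was 0.02 over the members and 0.01 over all genes. No member's inhibitor libraries lay wholly on one side of its vehicle libraries. Of all genes, 0.434% lay wholly above and 0.225% wholly below in wild type, and 0.55% and 1.15% did in the knockout.

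**Figure D2:**
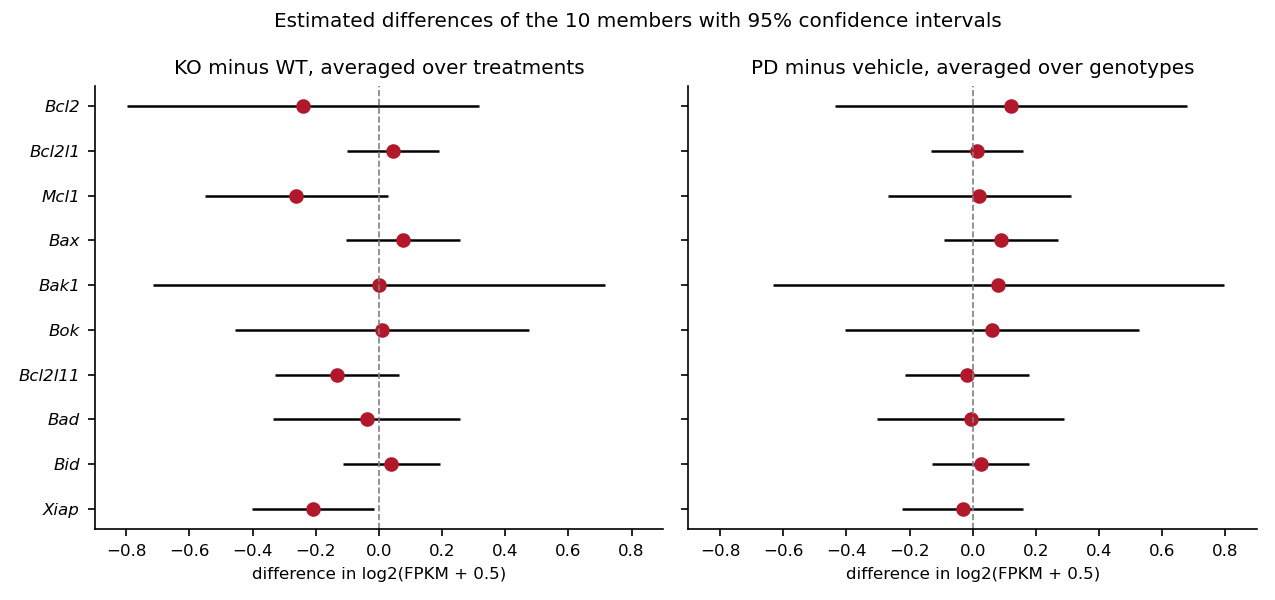
Averaged log2 differences of the 10 members (x axis, log2(FPKM + 0.5)), with knockout minus wild type on the left and PD0325901 minus vehicle on the right. Points are limma estimates from 16 libraries and lines are 95% intervals. Xiap on the left is the one interval that does not reach 0 (−0.40 to −0.02), and its adjusted p over all genes is 0.998.

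The Xiap difference was also read within sets of library numbers, a split that the first design did not hold for genotype. Xiap had been singled out by its p in the same libraries, so the tests below are not independent of that choice. The numbers in the column names fall into a lower 8 and a higher 8, which hold replicates 1 and 2 and replicates 3 and 4 of every group, and knockout and wild type were compared within each 8. Within the higher 8, Xiap was at 7.66 ± 0.726 FPKM in knockout and 10.3 ± 1.27 FPKM in wild type (SD, n = 4 each), a log2 difference of −0.41 with no overlap. Within the lower 8 it was at 9.97 ± 1.01 FPKM in knockout and 10.0 ± 0.429 FPKM in wild type, a log2 difference of −0.01 with overlap. The two-sided exact permutation p was 0.0286 in the higher 8, the smallest that 4 against 4 allows, and 0.943 in the lower 8.

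For Bax the groups within the higher 8 also did not overlap, in the other direction. Bax was at 24.0 ± 1.56 FPKM in knockout and 20.6 ± 1.12 FPKM in wild type there (SD, n = 4 each), a log2 difference of 0.22 with no overlap (exact permutation p = 0.0286). In the lower 8 it was at 18.7 ± 2.10 FPKM in knockout and 19.5 ± 1.16 FPKM in wild type, a difference of −0.06 with overlap (exact p = 0.629). The Mcl1 difference of knockout from wild type was −0.17 in the lower 8 (exact p = 0.343) and −0.35 in the higher 8 (exact p = 0.143), with overlap in both. Whether the differences themselves differed between the lower 8 and the higher 8 was not tested. These are 6 of 40 such tests, over 10 members, 2 factors and both sets, and none was adjusted. In the higher 8, 1 of 10 members lay wholly above and 1 wholly below, against 2.7% and 2.96% of all genes. In the lower 8, 0 of 10 did in either direction, against 0.906% and 1.15%. The 2 libraries with more decimals, WT_PD 4 and WT_vehicle 4, are both wild type and both in the higher 8. KO_vehicle 3, the library with high spermatid genes, is among the knockout libraries of the higher 8. The part of these features in the separation of Xiap and Bax was not tested. What the library numbers stand for is not stated in the sources used here.

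**Figure D3:**
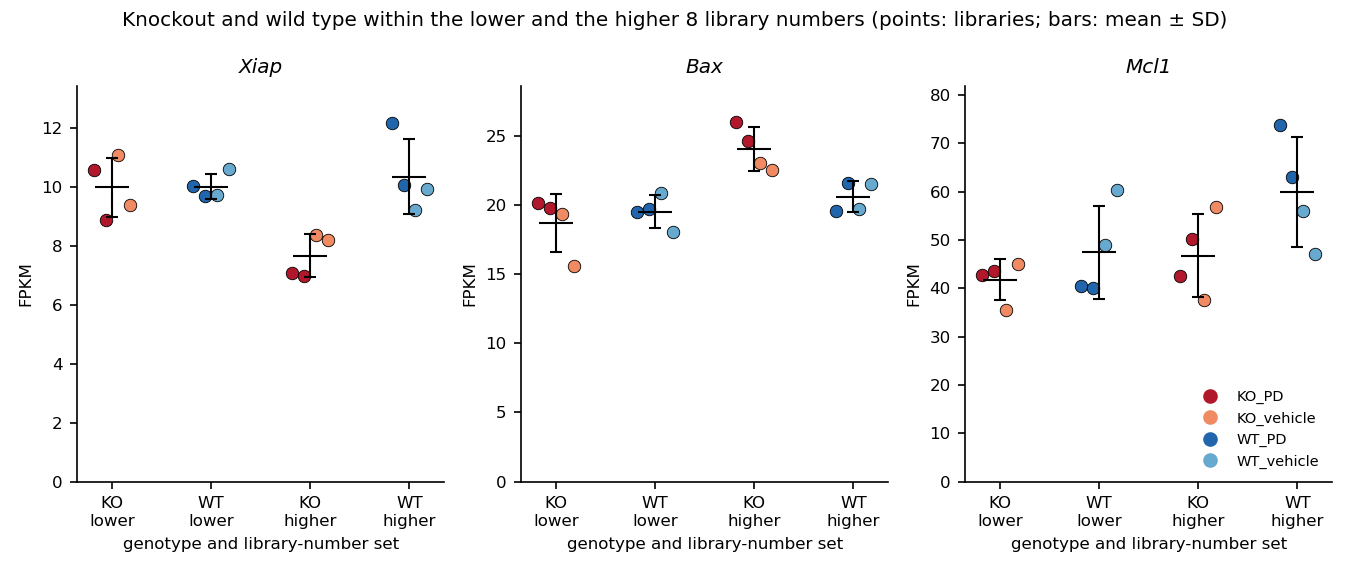
FPKM of Xiap, Bax and Mcl1 (y axis, from 0) in knockout and wild type within the lower 8 and the higher 8 library numbers (x axis). Points are libraries coloured by group, the wide bar is the mean and the error bar is 1 SD (n = 4). Xiap and Bax separate by genotype in the higher 8, at 7.66 against 10.3 FPKM and 24.0 against 20.6 FPKM, and overlap in the lower 8. Both libraries with more decimals, WT_PD 4 and WT_vehicle 4, are wild type in the higher 8.

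The widest variation among the members ran across the groups rather than between them, alongside the peritubular myoid genes. The mean log2(FPKM + 0.5) of the 7 peritubular genes ran from 6.22 (WT_PD 2) to 9.71 (WT_PD 3), and the 4 groups held 9.87% of its variance. It averaged 8.60 in KO_PD and 7.89 in KO_vehicle, against 7.97 in WT_PD and 8.55 in WT_vehicle. The differences were −0.66 for KO_vehicle against WT_vehicle (exact p = 0.286), 0.62 for KO_PD against WT_PD (exact p = 0.486), −0.57 for WT_PD against WT_vehicle (exact p = 0.571) and 0.71 for KO_PD against KO_vehicle (exact p = 0.314). The values are spread along the range without separate clusters, the largest gap being 0.684, between 6.76 and 7.45. Across all tested genes, 52.7% of the variance lay along 1 principal component. In bulk RNA, fewer cells of a type and less RNA per cell cannot be told apart.

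Bak1, Bcl2 and Bad followed that list most closely. Over 16 libraries, Pearson's r was 0.904 for Bak1 (Spearman's rho 0.912), 0.890 for Bcl2 (rho 0.926) and 0.882 for Bad (rho 0.888). Their permutation p-values, from 100000 resamples and adjusted over all 12907 genes, were 0.00015, 9.08e-05 and 0.000207. The unadjusted p of Bcl2, 1e-05, is the smallest that these resamples can give. Without the 2 libraries farthest from the median of the list, r was 0.903, 0.879 and 0.847 for the same 3 genes. Within the lower 8 and the higher 8 library numbers, r was 0.805 and 0.933 for Bak1, 0.889 and 0.95 for Bcl2, and 0.74 and 0.913 for Bad. With group means subtracted, it was 0.944, 0.951 and 0.881. Per log2 unit of the list, the fitted slope was 0.552 log2 units for Bak1, 0.435 for Bcl2 and 0.22 for Bad.

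Bok, Mcl1 and Bcl2l1 also passed with a positive r, and followed the list less closely. For Bok, r was 0.744 (rho 0.782, adjusted permutation p = 0.00305), and for Mcl1 it was 0.730 (rho 0.800, adjusted p = 0.00497). Within the lower 8 library numbers these were 0.417 and 0.408, and within the higher 8 they were 0.83 and 0.835. For Bcl2l1, r was 0.607 (rho 0.621, adjusted permutation p = 0.0259). That call lay near the threshold and was lost without some single libraries, though r stayed between 0.551 and 0.649 with 1 library left out. For Bcl2l1, it was 0.551 without KO_PD 4 (adjusted p = 0.0644), 0.569 without WT_PD 2 (adjusted p = 0.0506) and 0.570 without WT_PD 3 (adjusted p = 0.0548). Within the lower 8, its r was 0.125. The call also did not hold with the median of all genes made equal in every library. There r was 0.19 (adjusted permutation p = 0.547) for Bcl2l1 and below 0 for Bax, Bcl2l11 and Xiap. Bid went the other way, with r of −0.675 (rho −0.706, adjusted permutation p = 0.0118), −0.739 without the 2 farthest libraries, and −0.449 and −0.686 within the lower and higher 8. Bcl2l11, Bax and Xiap did not pass, with r of 0.237, 0.200 and 0.028.

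**Figure D4:**
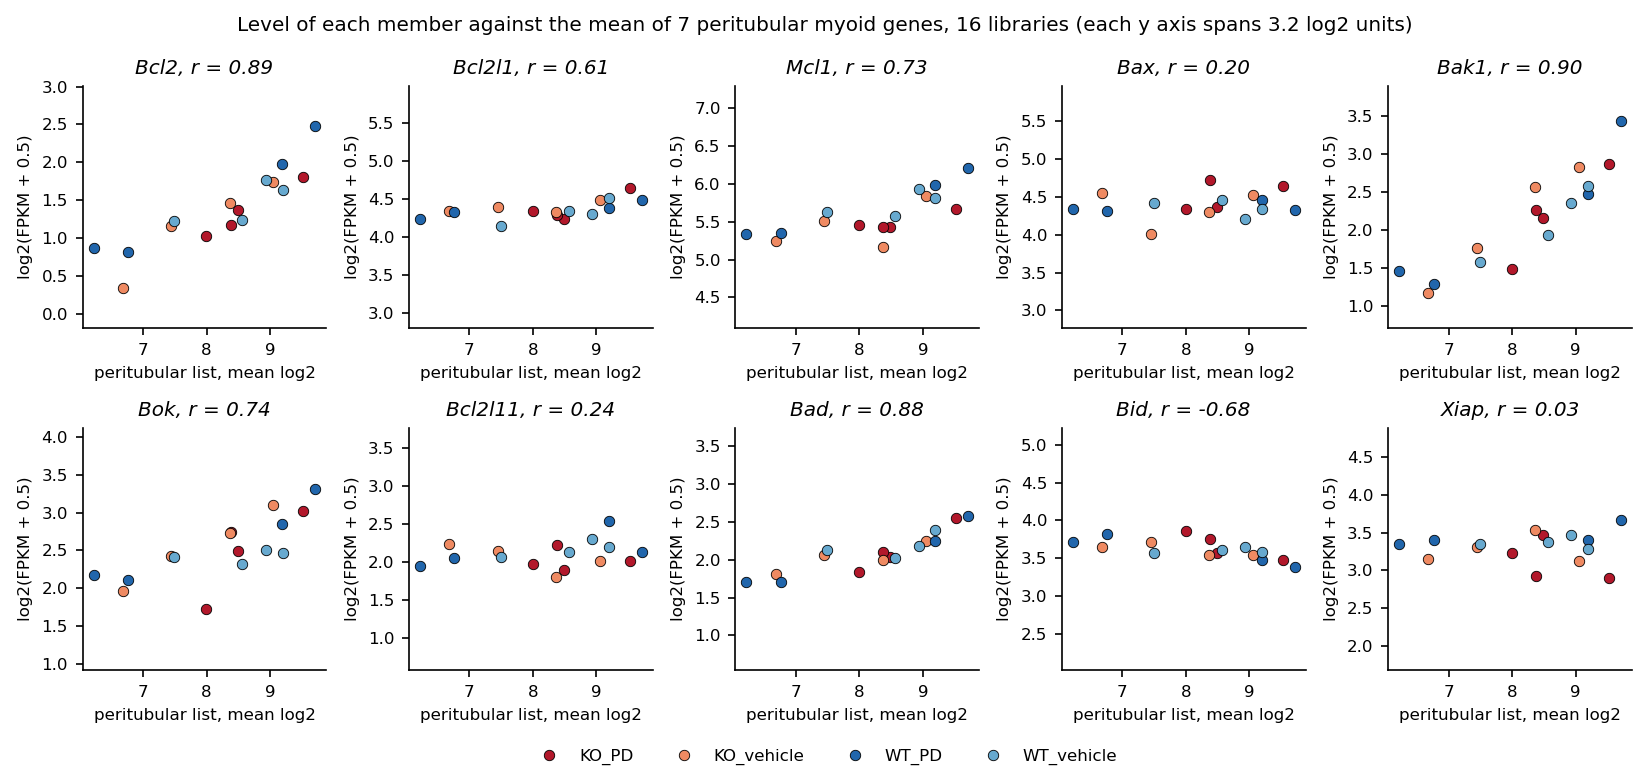
Level of each member (y axis, log2(FPKM + 0.5), each spanning 3.2 log2 units) against the mean log2(FPKM + 0.5) of 7 peritubular myoid genes (x axis) in 16 libraries coloured by group. Bak1, Bcl2 and Bad are higher along the list (r from 0.882 to 0.904), Bid is lower along it (r = −0.675), and Bax and Xiap run flat.

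Such a relation was common among all genes. In all, 6 of 10 members passed with a positive r and 1 of 10 with a negative r, against 30.5% and 21.9% of the 12907 genes, and 52.5% of genes passed with either sign. An r of at least 0.7 was reached by 5 of 10 members against 23.2% of genes, and an r of at least 0.85 by 3 of 10 against 12.9%. The median r was 0.669 over the members and 0.021 over all genes. The sum of the 2 Leydig cell genes, carried by Lhcgr, was lowest and highest in the same libraries as the peritubular list. The relation of the members to these 2 genes was not tested. Which cells the Bcl2, Bak1 and Bad transcripts came from was not tested.

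**Figure D5:**
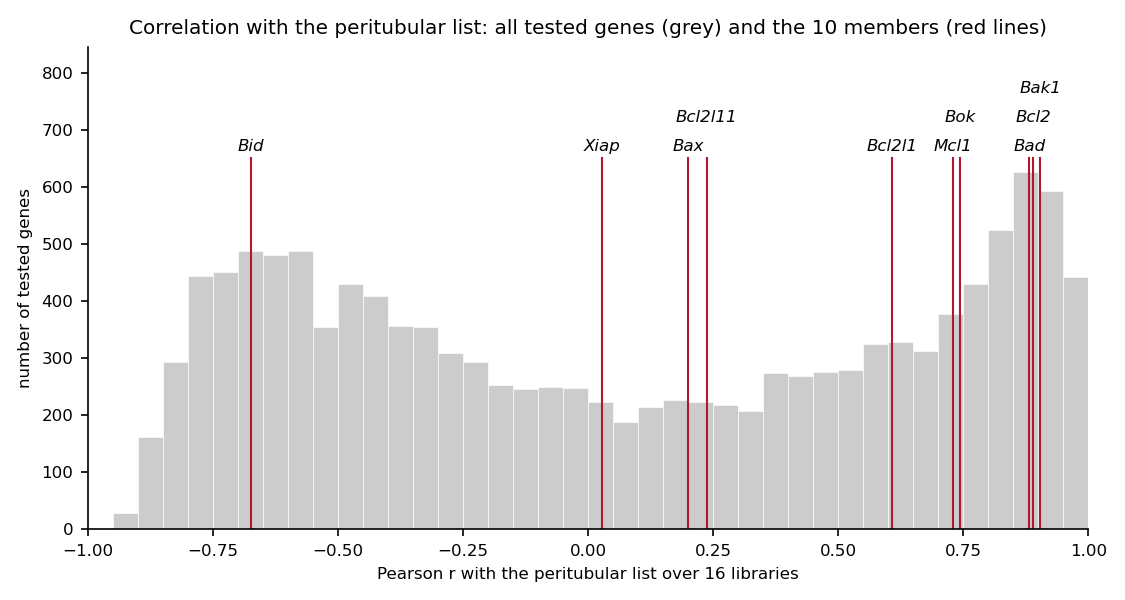
Number of tested genes (y axis) by Pearson r with the peritubular list over 16 libraries (x axis, bins of 0.05), with the 10 members as red lines. Most genes lie in a broad negative hump or in a peak at high positive r. Bcl2, Bak1 and Bad sit inside that peak, and 52.5% of the 12907 genes passed an adjusted p of 0.05.

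The variance of each member splits along the same line. A line on the peritubular list held 81.7% of the log2 variance of Bak1, 79.2% of that of Bcl2 and 77.8% of that of Bad, while the 4 groups held 0.48%, 7.39% and 5.27%. For Xiap the order was reversed, with 0.0803% for the list and 36.1% for the groups. Mcl1 had 53.2% with the list and 21.9% between groups, and Bax had 4.01% and 18.7%. By chance alone, 4 group means hold a larger share of the variance than a line does, so these shares are not on the same footing. The share expected by chance was not computed, and no member passed in any comparison between groups. No group effect on Xiap, Mcl1 or Bax is read from these shares. When the list mean was added to the model as a term, the averaged knockout difference was −0.21 for Xiap (SE 0.09, limma adjusted p = 0.41) and −0.26 for Mcl1 (SE 0.08, adjusted p = 0.327), as large as without it. The lowest limma adjusted p of any member in that model was 0.141, for Bcl2 in KO_PD against WT_PD, where its log2 difference was −0.49 (SE 0.13), against −0.19 (SE 0.37) without the term. In that model Spry4 alone passed, in the averaged knockout comparison, at −0.88 (SE 0.115, adjusted p = 0.0286).

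Other apoptosis genes were read from a list of 49, mostly of the intrinsic pathway but with 5 death receptor genes and Casp8 of the extrinsic one, of which 41 were in the table and 38 were tested. The same limma fit called 0 of 38 in each of the 7 comparisons. In the averaged knockout comparison Bcl2l13, a mitochondrial relative of the family, was at −0.24 (SE 0.12, limma adjusted p = 0.998). Casp9, the initiator caspase of the pathway, was at 20.2 to 21.6 FPKM in KO_vehicle and 17.6 to 19.9 FPKM in WT_vehicle, a difference of 0.12 (SE 0.08, limma adjusted p = 1). It was the 1 gene of the 38 whose libraries lay wholly on one side in that comparison, where 0.806% of all genes lay wholly above. In each of the other 3 comparisons between groups 0 of 38 did. Among the lowest unadjusted p-values elsewhere were those of Cycs, cytochrome c, beside Casp9 under vehicle (−0.27), of Bnip3l (−0.17) under the inhibitor, and of Bik (−0.15) and Marchf5 (0.13) for the inhibitor in wild type. Others were Bnip3l (−0.17) and Usp9x (−0.24) for the inhibitor in the knockout, Bik (0.23) and Bnip3l (−0.21) for the interaction, and Casp9 (−0.12) and Fadd (0.18) for the averaged inhibitor comparison, none with a limma adjusted p below 0.968.

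Of those 38 genes, 12 (31.6%) passed with a positive r and 9 (23.7%) with a negative r with the peritubular list, by the same permutation test adjusted over all genes. These shares are close to the 30.5% and 21.9% of all genes, and the median r of the 38 was −0.225. The positive ones included Vdac1 (r = 0.955) and Vdac2 (0.888), channels of the outer mitochondrial membrane, Fas (0.954), a death receptor, Bcl2l2 (0.890), the gene of the survival protein BCL-W, and Cflar (0.817), an inhibitor of caspase-8 activation. The negative ones included the caspases Casp6 (−0.836) and Casp2 (−0.601), and Apaf1 (−0.664), the scaffold on which caspase-9 is activated. Huwe1 (−0.661), a ubiquitin ligase for MCL1, and Birc6 (−0.613), a large relative of XIAP, were also among them. These examples were picked after their values were seen. Bcl2l14 was at 10.6 FPKM in KO_vehicle 3, the library with high spermatid genes, and at no more than 0.804 FPKM in the other 15.

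The genes most like each member in pattern were found by Pearson's r of log2(FPKM + 0.5) over the 16 libraries, which share depth and makeup, and are given as a description. They were Itgb1 (0.986) and Fermt2 (0.984) for Bcl2, Zfp358 (0.990) and Trim35 (0.987) for Bak1, and Tppp3 (0.958) and Mpc1 (0.957) for Bad. At an r of at least 0.9 there were 1041 genes for Bcl2, 1314 for Bak1 and 436 for Bad, so these 3 patterns were shared widely. Bok had Slc39a1 (0.953) and Ucp2 (0.952), with 154 genes at that level, and Mcl1 had Btg1 (0.964) and Errfi1 (0.954), with 58. Xiap had Odr4 (0.962) and Zkscan1 (0.959), with 30. Few or no genes followed the other members this closely: Bid had Smg8 (0.940) and Spdl1 (0.920), Bax had Mapk8ip3 (0.923) and Clasrp (0.890), Bcl2l1 had Trabd (0.9) and Bckdha (0.897), and Bcl2l11 had Elp5 (0.897) and Cenpl (0.892).

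Depth limits the low members most. A multiple of the divisor behind these numbers would also give whole fragments, so these fragment numbers are the low end, and the counting errors the high end, of what the values allow. The fewest fragments behind a value were 125 for Bok, 130 for Bak1, 190 for Bad and 253 for Bcl2, at which counting error alone is 8.94%, 8.77%, 7.25% and 6.29% of the value. The other 6 members had at least 608 fragments in every library. Making the median over all genes equal in every library would shift values by −0.15 (WT_PD 3) to 0.09 (WT_PD 1) on the log2 scale. The peritubular list mean was 9.71 in WT_PD 3, the highest, and 6.76 in WT_PD 1.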

How the data were processed

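The authors deposited FPKM values, 1 column per library, per the file headers. Per the submitters' processing notes, the tools were FastQC, STAR 2.7.10a and edgeR 4.0.14 and the builds mm10 and GRCm39, whose roles the notes do not state. How reads were counted, which gene lengths were used and how libraries were scaled is not given in the sources used here. Gene positions came from GENCODE M21 on GRCm38, which holds 15791 (96.4%) of the 16383 symbols. The divisor behind the FPKM values was taken as the smallest that turned FPKM times exon length into whole fragments (23360011 to 36613899). In 5 libraries the listed genes held more fragments than this divisor, so it is not the library size itself. These were KO_PD 4, KO_vehicle 4, WT_PD 3, WT_PD 4 and WT_vehicle 3, the 5 with the highest peritubular list means (9.05 to 9.71). Whether the divisor holds a scaling factor was not tested. The part of such scaling in the correlations with the list was not tested either, beyond the alternative with equal medians. With this divisor, 92.9% to 94.3% of values under 100 fragments lay within 0.1 of a whole number.

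Log2(FPKM + 0.5) values entered limma 3.58.1 (R 4.3.3), a scale that understates changes of low genes, with 1 mean per group over 16 libraries and a variance trend. Genes with at least 1 FPKM in at least 4 libraries entered (12907, with 3476 left out). Benjamini-Hochberg adjustment covered all of them, and the threshold was 0.05. Correlations used 100000 permutations drawn with numpy 2.4.6 and were adjusted over all tested genes, not over the 10 members as first designed. Two-sided exact permutation tests in scipy 1.17.1 compared single values, 4 libraries against 4. The fit and the correlation were tested on simulated data.

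The members, the gene lists and the cell type markers were chosen with earlier results of these data known. The genes named were the 10 members, Spry4, Acta2, Zbtb16, the 2 apoptosis genes of lowest p in each comparison and the 2 genes most like each member in pattern (predicted genes left out). Other genes were picked after their values were seen. Some genes that this rule names are not reported here. Alternatives changed the pseudocount, the filter, the scaling, the terms of the model, the variance model, the marker and the libraries used. Counting errors cover counting only.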

Additional observations from a re-analysis of the deposited data

Results flagged for a closer look

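In each group of 4 libraries, the highest or lowest value of a member was set against the other 3, and called distant where its gap to the nearest exceeded 0.829 of the group's range. This held in 3 of 40 groups, and chance gives about 1 in 20. Mcl1 was at 50.2 FPKM in KO_PD 4, against 42.5 to 43.6 FPKM in the other KO_PD libraries, with a gap of 0.859 of the range. KO_PD 4 was also the KO_PD library with the highest peritubular list mean (9.52). Bax was at 21.6 FPKM in WT_PD 4, against 19.5 to 19.7 FPKM in the other WT_PD libraries, with a gap of 0.884 of the range. WT_PD 4 is 1 of the 2 libraries whose columns hold more decimals. Xiap was at 12.2 FPKM in WT_PD 3, against 9.68 to 10.1 FPKM in the other WT_PD libraries, with a gap of 0.84 of the range. WT_PD 3 had the highest peritubular list mean of the 16 libraries (9.71). The part of these features in the 3 values was not tested.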

How the results depend on the processing

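No member passed an adjusted p of 0.05 in any of 1500 recomputed differences, whose lowest adjusted p was 0.141. Of the 70 differences of a member in a comparison, 49 took the other sign at least once, in 176 recomputations. The cause was not tested. The count of genes called stayed at 0 in every comparison and alternative except the averaged knockout comparison with the peritubular list as a term, where it was 1 (Spry4). Signs turned for Bak1 with log2(FPKM + 1) in the averaged knockout difference (−0.002) and, with the list as a term, for Bad in WT_PD against WT_vehicle (0.011) and in the interaction (−0.067). For averaged inhibitor differences, they turned for Mcl1 without the 2 libraries with more decimals (−0.050), and for Bad (0.007) and Bid (−0.005) with voom on recovered fragments, both chosen after seeing the data. With equal medians, r with the list became −0.118 for Bax, −0.087 for Bcl2l11 and −0.254 for Xiap, and Bcl2l1 no longer passed (0.19, adjusted permutation p = 0.547). Without the 2 libraries with more decimals, r of Xiap was −0.011.

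Leaving out 1 library at a time, averaged knockout differences ran from −0.108 to 0.048 for Bad, −0.147 to 0.212 for Bak1, 0.000 to 0.075 for Bcl2l1 and −0.082 to 0.136 for Bok. Averaged inhibitor differences ran from −0.094 to 0.053 for Bad, −0.131 to 0.228 for Bak1, −0.038 to 0.240 for Bcl2, −0.031 to 0.045 for Bcl2l1, −0.080 to 0.019 for Bcl2l11, −0.012 to 0.061 for Bid, −0.054 to 0.190 for Bok, −0.061 to 0.087 for Mcl1 and −0.088 to 0.010 for Xiap. In WT_PD against WT_vehicle, Bad ran from −0.291 to 0.001 and Bok from −0.046 to 0.354. Bok ran from −0.049 to 0.329 in KO_vehicle against WT_vehicle and from −0.444 to 0.008 in the interaction. Spry4 ran from −1.158 to −0.836 in KO_vehicle against WT_vehicle, where fewer libraries cannot reach the threshold, and r of Xiap with the list ran from −0.170 to 0.244.

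The replicate numbers do not pair the libraries by their values: 10 of 24 same-number correlations exceeded 0.1 (−0.527 to 0.734), and 5 of 16 libraries matched best with their own number. A replicate block gave 0 calls in every comparison.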
